A study of Drosophila melanogaster with 16 samples.

Results

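The Drosophila melanogaster gene phu (FBgn0043791, also listed as CG8147 and Alp3) is 1 of the 17489 genes counted in 16 RNA libraries from fly heads. It was chosen by its level in these libraries, which was higher on a diet with 30% sucrose both in whole-head RNA and in RNA pulled down from cells that use the driver of Gr5a, a sweet taste receptor gene. The day 7 diet differences that chose the gene are given below as a description and were not tested. The comparisons that the choice did not use, pull-down against whole lysate and sugar-experienced against control flies after a return to the control diet, were tested.

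Alkaline phosphatases remove phosphate groups from a broad range of substrates at alkaline pH, and many are secreted or anchored to the outer face of the cell membrane. In flies they form a family of related genes, of which Alp4 (also called Aph-4) is known from the Malpighian tubules, the insect kidney, and from neurons of the ellipsoid body in the brain. By name and annotation phu belongs to this family. Reads that fit several related genes equally well are left out of the counts used here.

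All flies were adult males of the genotype Gr5a>UAS-Rpl3-3XFLAG, in which the Gr5a driver puts a FLAG-tagged ribosomal protein, RpL3, into the Gr5a cells. In translating mRNA affinity purification (TRAP) the tagged ribosomes are pulled down from a head lysate and their mRNA is sequenced, here called the Gr5a fraction, while the input is total RNA of the lysate. Flies went onto their diet at day 5 and were collected at day 12 after 7 days on the control diet with 5% sucrose (CD7) or on the sugar diet with 30% sucrose (SD7). SD3 flies had 3 days on the sugar diet. Flies of the switch groups had a first week on the control or the sugar diet and a second week on the control diet, to day 19 (CD>CD and SD>CD). There were 3 input libraries for CD7 and 2 for SD7, and in the Gr5a fraction 3 for CD7 and 2 each for SD7, SD3, CD>CD and SD>CD. Each library is a labelled biological replicate of 300 heads, and the driver marks every cell that expresses it in the head, whatever its type.

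Gene counts per library ranged from 22901154 to 55290069. The sweet taste receptor genes Gr5a, Gr64f, Gr64a and Gr61a summed to between 9.11 and 19.2 CPM (counts scaled to the library total, per 1000000) in the 11 Gr5a libraries and to between 0.949 and 1.92 CPM in the 5 input libraries, with none of the 4 at 0 in any library. In bulk RNA, fewer cells of a type and less RNA per cell cannot be told apart. The 2 SD>CD libraries rest on their condition label, since their titles read CD>CD. CD>CD replicate 2 stood apart from replicate 1 at diet-linked genes: the storage protein gene Lsp2 was at 1.62 CPM in replicate 2 and 684 CPM in replicate 1, beside 0.794 and 4.54 CPM in the SD7 libraries of the Gr5a fraction and between 123 and 363 CPM in its CD7 libraries. The phu, alkaline phosphatase and contrast values that rest on CD>CD are therefore given with and without replicate 2. Replicate 1, the only control of the fits without replicate 2, had more reads outside genes (14.1% against 7.75%). It also had more reads with several mapped places (26% against 17%). Both shares of replicate 1 were the highest of the 13 libraries that list them.

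The phu gene lies on chromosome 3R at 9494801 to 9496723 on the plus strand (BDGP6, the dm6 assembly) and has 1 annotated transcript with 2 exons. Exon 1 runs from 9494801 to 9494942 and holds the 5′ untranslated region (9494801 to 9494887) and the start codon. Exon 2 runs from 9495004 to 9496723 and holds most of the coding sequence and the 3′ untranslated region (9496590 to 9496723). The joined exons span 1862 bases and overlap no other gene. The nearest gene on the left, CG16779, lies 1124 bases away on the minus strand. The nearest on the right, the small GTPase gene RhoL, lies 378 bases away on the minus strand, so the 3′ ends of phu and RhoL face each other. Reads on the strand opposite to phu were few, between 2 and 48 per library in the 15 libraries that list them, against 346 to 2716 same-strand reads in all 16.

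In the input, the phu level was 19.4, 13.9 and 25.6 CPM in the 3 CD7 libraries and 62.9 and 52.9 CPM in the 2 SD7 libraries. Both sugar diet libraries were above all 3 control diet libraries. The group means were 19.6 CPM ± 5.83 (SD, n = 3) and 57.9 CPM ± 7.07 (SD, n = 2), a log2 fold change of 1.57 with a standard error (SE) of 0.25, or 2.96-fold. CPM values are scaled with TMM (trimmed mean of M values) factors over all 16 libraries. Counting error alone gave 95% exact Poisson intervals with a half-width between 3.78% and 10.7% of the count. A total of 3153 of 14185 tested genes, 22.2%, were higher without overlap in this comparison, and 0.0705% passed the test used below, so nothing is read from phu being among the former.

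In the Gr5a fraction, phu was at 12.8, 11.1 and 15.9 CPM in the CD7 libraries and at 47.8 and 34.0 CPM in the SD7 libraries. Again both sugar diet libraries were above the 3 control diet libraries. The means were 13.3 CPM ± 2.40 (SD, n = 3) and 40.9 CPM ± 9.83 (SD, n = 2), and the log2 fold change was 1.66 (SE 0.34), or 3.16-fold. Without SD7 replicate 1 it was 1.35. In this comparison 8.63% of 13758 tested genes were higher without overlap. No gene passed the test at an adjusted p-value under 0.1 with edgeR, while 772 had an unadjusted p-value under 0.05 and the DESeq2 Wald test called 60.

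The pattern that chose phu was met by 351 of the 13655 genes tested in both fits. These were higher on the sugar diet without overlap in both input and Gr5a fraction, and 9 of them were at least 2-fold higher in both. With a mean of at least 5 CPM over the 16 libraries there were 3, phu, Nepl4 and CNMa. These limits were set after the values were seen, so nothing is read from phu being among the 3. Nepl4 encodes a neprilysin-like metallopeptidase and CNMa a neuropeptide. The log2 fold changes on the sugar diet were 2.39 in input and 2.23 in the Gr5a fraction for Nepl4, and 2.76 and 2.96 for CNMa.

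**Figure D1:**
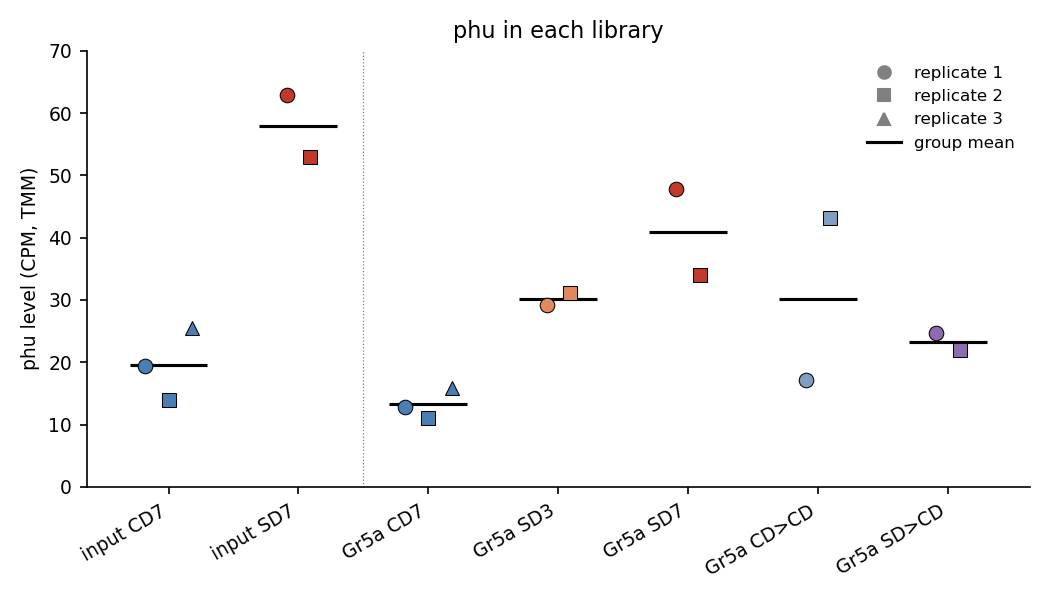
Level of phu in CPM with TMM factors (y axis, from 0) in each of the 16 libraries, by group (x axis), with input on the left of the dotted line and Gr5a fraction on the right. Points are libraries, shapes are replicate numbers and lines are group means. The 2 input SD7 libraries, at 62.9 and 52.9 CPM, are the highest, and CD>CD replicate 2, at 43.1 CPM, lies among the sugar diet libraries.

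After 3 days on the sugar diet, phu was at 29.1 and 31.2 CPM in the Gr5a fraction, between the CD7 and the SD7 libraries and overlapping neither. Among all 13758 tested genes, 19.7% were higher in SD3 than in CD7 without overlap and 24.6% higher in SD7 than in SD3. Its log2 fold change over CD7 was 1.11 (SE 0.34) at 3 days, and that of SD7 over SD3 was 0.55 (SE 0.37). The 3-day and 7-day differences share the CD7 libraries. Without SD7 replicate 1 the step from 3 to 7 days was 0.19, and without SD7 replicate 2 it was 0.82, so the size of the later step rested on single libraries.

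A second week, on the control diet, left the phu level at 24.6 and 21.9 CPM in the SD>CD libraries, below both SD7 libraries and above all 3 CD7 libraries. Of all tested genes, 38.6% were lower in SD>CD than in SD7 without overlap, and 27.6% were higher in SD>CD than in CD7. The log2 fold change of SD>CD against SD7 was -0.86, with values of -0.51 without SD7 replicate 1 and -1.13 without replicate 2. The age-matched CD>CD libraries were at 17.2 and 43.1 CPM, on either side of the SD>CD libraries. Both were above all CD7 libraries, as were those of 22.0% of genes, with a log2 fold change of 1.14 that was 0.27 without CD>CD replicate 2.

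In order of mean level, the groups ran from Gr5a CD7 (13.3 CPM) through input CD7 (19.6), Gr5a SD>CD (23.3), Gr5a CD>CD (30.1), Gr5a SD3 (30.2) and Gr5a SD7 (40.9) to input SD7 (57.9 CPM). The libraries of each neighbouring pair overlapped as far as SD3. SD3 and SD7 of the Gr5a fraction did not overlap, nor did Gr5a SD7 and input SD7.

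Whether flies once on the sugar diet still differed from their age-matched controls was tested in the comparison of SD>CD with CD>CD. The phu difference was not distinguished from 0, with means of 23.3 CPM ± 1.94 (SD, n = 2) and 30.1 CPM ± 18.4 (SD, n = 2) and a log2 fold change of -0.34 (SE 0.38). The adjusted p-value was 0.812 by the quasi-likelihood F test of edgeR over 13758 genes, of which 13.1% were called lower and 0.211% higher. The direction depended on CD>CD: without its replicate 2 the log2 fold change was 0.53 (adjusted p-value 0.443 by edgeR), and without its replicate 1 it was -0.90 (adjusted p-value 0.039 by edgeR). Over these 2 alternatives and the others tried, the value ran from -0.90 to 0.80. The latter, with CD7 in place of CD>CD, passed the threshold in the opposite direction (adjusted p-value 0.0949 by edgeR), against a group that the choice of phu had picked as low. Thus neither a lasting difference nor its size could be read from these 4 libraries.

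The comparison of Gr5a fraction with input asks whether an mRNA is more or less common on the tagged ribosomes than in the whole head lysate. On the control diet phu was lower in the Gr5a fraction, with a log2 fold change of -0.56 (SE 0.23, adjusted p-value 0.0806 by the quasi-likelihood F test of edgeR), or 1.47-fold. The groups overlapped, since input CD7 replicate 2 (13.9 CPM) was below Gr5a CD7 replicate 3 (15.9 CPM). Within each same-numbered pair the Gr5a library was lower, at 0.660, 0.799 and 0.620 of its input. In this comparison 46.2% of 14185 genes were called and 22.0% were called lower, so a call here is common. The call was lost in 4 of the 6 fits that left out 1 library: without input CD7 replicate 1 (adjusted p-value 0.129), input CD7 replicate 3 (0.315), Gr5a CD7 replicate 1 (0.176) or Gr5a CD7 replicate 2 (0.196), all by edgeR.

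On the sugar diet both Gr5a libraries (47.8 and 34.0 CPM) were below both input libraries (62.9 and 52.9 CPM). The log2 fold change was -0.52 (SE 0.28), close to that on the control diet, and did not pass the test (adjusted p-value 0.268 by edgeR over 14185 genes). With the replicate number as a block it was -0.54 and passed (adjusted p-value 0.0635 by edgeR). Over 14185 genes, however, the same-numbered SD7 libraries deviated in opposite directions (correlation -0.271). For phu itself replicate 1 was the higher in both fractions. Within the same-numbered pairs the Gr5a library was at 0.760 and 0.642 of its input. In this comparison 20.5% of genes were lower without overlap and 7.95% were called lower. On both diets the mean phu level of the pull-down was below that of the lysate. Beside this, 5 fat body genes summed to between 4563 and 7806 CPM in the Gr5a CD7 libraries and between 12600 and 18198 CPM in the input CD7 libraries. Lsp2 was a small part of the sum, at 226 to 579 CPM (with TMM factors) in input CD7. Pepck1 was at 0 in all 16 libraries, Fbp1 at 3 counts or fewer in 11 and Lsp1gamma in 9, so the list is in the main a reading of apolpp. In the input the same sum was 7507 and 10985 CPM on the sugar diet, lower than in all 3 control libraries while phu was higher. Of the 13 marker lists, 7 were lower without overlap in the Gr5a fraction than in input on the control diet. Beside fat body they were oenocyte (1283 to 1828 against 4461 to 4964 CPM), accessory gland (99.7 to 140 against 311 to 424), hemocyte (240.5 to 374 against 528 to 678), photoreceptor (9617 to 16205 against 21686 to 26945), muscle (2143 to 3026 against 3253 to 4338) and testis (331 to 487 against 495 to 621). On the sugar diet 5 were lower, namely fat body, hemocyte, neuron, photoreceptor and testis. In input SD7 against CD7, 5 of the 13 were lower, namely Malpighian tubule, accessory gland, fat body, midgut and oenocyte. There 1 list, that of neuron genes, was higher as phu was (4646 and 5490 against 3941 to 4248 CPM). The part of these cells' RNA in the phu values was not tested.

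**Figure D2:**
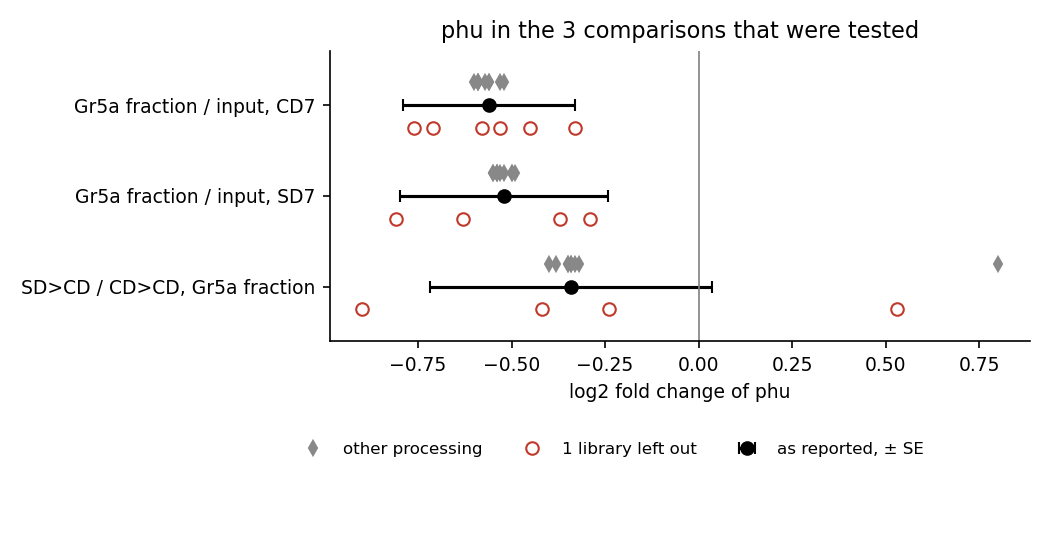
Log2 fold change of phu (x axis) in the 3 tested comparisons (y axis). Black points are the reported values with their SE, open circles are fits without 1 library, and grey diamonds are the other processing alternatives. All values lie below 0 for Gr5a fraction against input on either diet, while those for SD>CD against CD>CD run from -0.90 to 0.80, the latter with CD7 as the control.

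Neither of the nearest genes passed the test in SD7 or SD3 against CD7. RhoL was lower in SD>CD than in SD7 (log2 fold change -0.92, SE 0.21, adjusted p-value 0.00991 by edgeR). A call was common in that comparison, where edgeR with a prior count of 2, an alternative, called 5045 of 13758 genes. RhoL was higher in the Gr5a fraction than in input on the control diet (log2 fold change 1.03, SE 0.15, adjusted p-value 0.000976 by edgeR) and on the sugar diet (1.11, SE 0.19, adjusted p-value 0.00515 by edgeR). Of all genes, 24.3% and 10.8% were called higher there. The log2 fold change of RhoL between SD7 and CD7 was -0.26 (SE 0.17) in input and -0.13 (SE 0.19) in the Gr5a fraction, neither past the test. CG16779 did not pass the test in these comparisons, with 0.53 (SE 0.15, adjusted p-value 0.18 by edgeR) in input SD7 against CD7 and 0.58 (SE 0.18, adjusted p-value 0.213 by edgeR) in SD7 against SD3 of the Gr5a fraction.

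By name, 11 genes of the alkaline phosphatase family were matched in the count tables, phu among them. Alp1 and Alp2 were not matched and not analysed here, so the ranks are among the matched genes only. Per length of exons, phu had the second level of the 11 in 6 of the 7 groups, after Alp4, and the first in input SD7. In input SD7 the phu level was 31.1 CPM per kilobase ± 3.80 (SD, n = 2) and that of Alp4 16.1 ± 0.658, while in input CD7 they were 10.6 ± 3.14 (SD, n = 3) and 20.0 ± 0.594. In the Gr5a fraction Alp4 was always above phu, for example at 44.6 ± 10.7 against 22.0 ± 5.28 CPM per kilobase in SD7 (SD, n = 2).

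The alkaline phosphatase genes other than phu, which was not tested here, gave no call for the day 7 sugar diet, where calls were rare among all genes. In input, 0 of 9 tested members were called by edgeR, beside 0.0705% of all genes, 0 had an unadjusted p-value under 0.05 and 0 were called by DESeq2. All 9 had log2 fold changes below 0, with a median of -0.65 beside 0.02 over all 14185 tested genes. In the Gr5a fraction, 0 of 8 tested members were called by edgeR or DESeq2, beside 0% of all genes by edgeR, 0 had an unadjusted p-value under 0.05, and the median was -0.33 beside 0.04 over all 13758 tested genes. At 3 days 0 of 8 were called by either tool, beside 0.0436% of all genes by edgeR, 1 had an unadjusted p-value under 0.05, and the median was -0.16 beside -0.08. Alp4, for example, had log2 fold changes of -0.30 (SE 0.15) in input and -0.28 (SE 0.27) in the Gr5a fraction at 7 days, and Alp12 -0.56 (SE 0.33) and -0.44 (SE 0.32). Midgut digestive enzyme genes (6 of 6 measured, none at 0) were also lower in the sugar diet inputs, with sums of 144 and 449 CPM against 737 to 1013 CPM. Malpighian tubule markers (124 and 132 against 144.5 to 173.9 CPM) were lower there too, as were accessory gland, fat body and oenocyte markers. Neuron markers were higher. The part of all these lists in these values was not tested.

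In the pull-down several of the other alkaline phosphatase genes were called higher than in input. On the control diet 5 of 9 rose in the Gr5a fraction over input and 0 were called lower, beside 24.3% of all genes called higher, and the median log2 fold change was 0.91 beside 0.02 over all genes. The 5 were Alp4 (1.49, SE 0.13, adjusted p-value 9.29e-05 by edgeR), Alp9 (1.80, SE 0.43), Alp10 (1.60, SE 0.40), Alp5 (0.91, SE 0.40) and Alp12 (0.84, SE 0.29). Alp8 (-0.73, SE 1.21) and Alp11 (-0.71, SE 0.44) lay below 0, as phu did, and did not pass the test. Leaving out input CD7 replicate 2, input CD7 replicate 3 or Gr5a CD7 replicate 1 lowered the count to 3. On the sugar diet 3 of 9 rose and none fell, namely Alp4 (1.45, SE 0.16), Alp9 (2.03, SE 0.53) and Alp10 (2.14, SE 0.51), beside 10.8% of all genes called higher, and the count was 1 without input SD7 replicate 1 or Gr5a SD7 replicate 1 and 5 without replicate 2 of either. The midgut genes summed to between 2209 and 4337 CPM in the Gr5a CD7 libraries, above the inputs. Malpighian tubule markers (383 to 504 against 144.5 to 173.9 CPM), glia markers (1751 to 1909 against 1027 to 1165 CPM) and the sweet taste receptor genes were also above the inputs. The part of all 4 lists in these values was not tested.

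**Figure D3:**
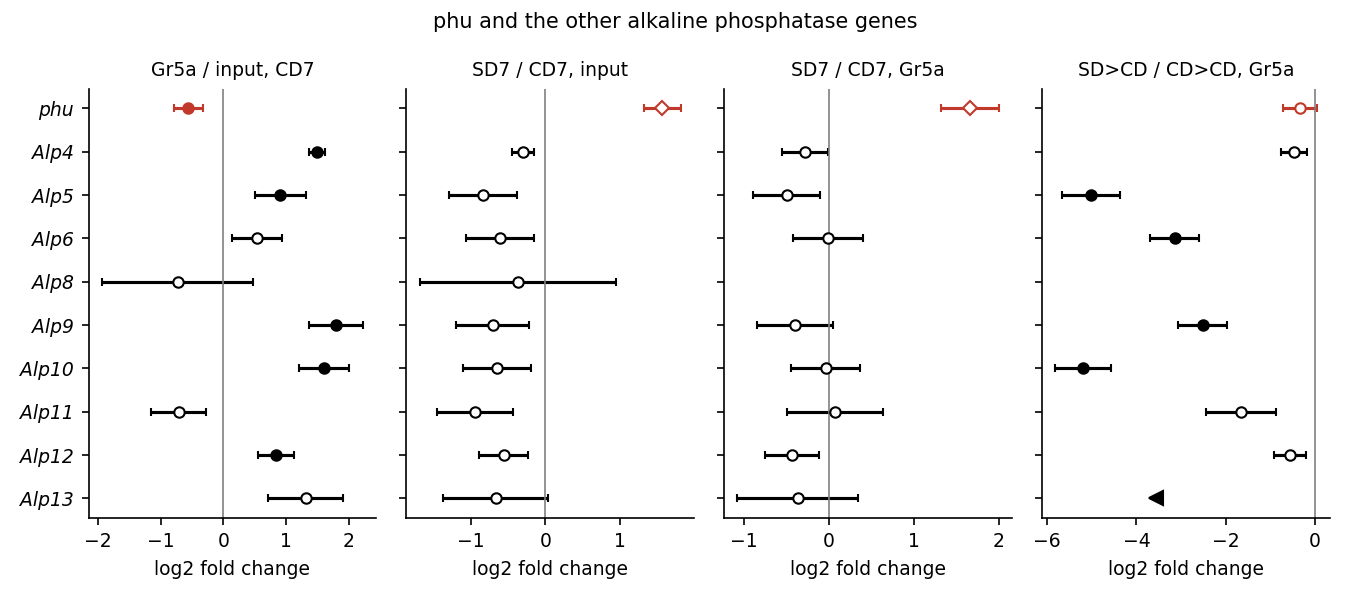
Log2 fold change with its SE (x axis) of phu (red) and the other alkaline phosphatase genes (black) in 4 comparisons. Filled circles passed the test at an adjusted p-value under 0.1, open circles did not, diamonds were not tested because they chose the gene, and the triangle is a bound for Alp13, at least 11.8-fold lower. Above 1 in both diet panels there is phu and no other member, but phu was chosen for these differences, so nothing is read from that. The called members of the left panel other than phu lie above 0.

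In SD>CD against CD>CD, 5 of 8 tested alkaline phosphatase genes fell, beside 13.1% of all genes called lower, and the median log2 fold change was -2.82 beside -0.03. They were Alp5 (-5.01, SE 0.65), Alp6 (-3.14, SE 0.55), Alp9 (-2.51, SE 0.55), Alp10 (-5.19, SE 0.63) and Alp13. Alp10, for example, had 155 and 303 reads in the CD>CD libraries and 8 and 3 in the SD>CD libraries, with adjusted p-value 0.00114 by edgeR. Alp13 had 40 reads in the CD>CD libraries together and 0 in the SD>CD libraries, at least 11.8-fold lower against a floor of 3 reads over the group, and the list median is the same with Alp13 at that bound. Without CD>CD replicate 2 the same 5 genes were called, at -5.45, -3.14, -2.40, -4.91 and -7.34 in the order above, the last dependent on the prior count, and the median over the 8 genes was -2.77. Without SD>CD replicate 2 the count was 3. The midgut genes summed to 1029 and 2650 CPM in CD>CD and to 9.29 and 17.5 CPM in SD>CD, in the same direction as these 5 genes. Accessory gland markers (29.2 and 39.1 against 0.337 and 0.480 CPM) and oenocyte markers (790 and 1130 against 471 and 513 CPM) were also lower in SD>CD, and 3 lists, of glia, muscle and photoreceptor genes, were higher. Their part was not tested. Alp4 (-0.47, SE 0.29), Alp12 (-0.56, SE 0.36) and phu did not pass the test.

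Histidine acid phosphatases, an unrelated family that works at acid pH, gave 0 of 8 calls by edgeR in each of the 3 diet comparisons, with 2, 2 and 1 members at an unadjusted p-value under 0.05 in input SD7, Gr5a SD7 and Gr5a SD3. Over all genes edgeR called 0.0705%, 0% and 0.0436% there. DESeq2 called 0, 1 and 1. In the pull-down against input on the control diet, 4 of 8 rose and 1 fell, beside 24.3% and 22.0% of all genes. The inositol polyphosphate phosphatase gene Mipp1 (1.03, SE 0.18) was among those that rose, and CG6656 (-1.14, SE 0.18) fell. On the sugar diet Mipp1 (0.87, SE 0.22) rose and CG6656 (-1.05, SE 0.22) fell, beside 10.8% and 7.95% of all genes.

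The 6 genes whose levels over the 11 Gr5a libraries were most like those of phu, by Pearson correlation of log2 CPM among 8699 other genes with a mean of at least 5 CPM, were Nepl4 (r = 0.92), CNMa (0.92), Nap1 (0.91), sug (0.91), Rcd5 (0.90) and Smyd4-4 (0.84). The correlations are a description: the libraries share diet groups and one normalization, and the seventh gene was close behind at 0.83, with a median of 0.02 over all ranked genes. Spearman's rho was 0.95, 0.86, 0.87, 0.87, 0.93 and 0.78 in the same order. Without the 2 libraries farthest from the median phu level, Gr5a CD7 replicate 2 and Gr5a SD7 replicate 1, r was between 0.88 and 0.99 over 9 libraries.

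sug (sugarbabe) encodes a zinc finger transcription factor known to be induced by dietary sugar. It was at 28.0 to 36.9 CPM in the CD7 libraries of the Gr5a fraction and at 45.8 and 71.0 CPM in SD7, without overlap. Nepl4 was at 2.32 to 4.01 CPM in CD7, 10.7 and 12.0 in SD3, 13.1 and 19.0 in SD7, 4.86 and 28.2 in CD>CD and 6.82 and 9.12 in SD>CD. CNMa was at 1.33 to 1.87 CPM in CD7, 10.8 and 14.7 in SD7, 1.74 and 19.9 in CD>CD and 7.34 and 7.50 in SD>CD. In each of these 3 genes, as in phu, CD>CD replicate 2 was near or above the SD7 libraries and replicate 1 near the CD7 libraries. In all of them both SD>CD libraries were above all CD7 libraries, as were those of 27.6% of all tested genes. The 3 genes were picked for likeness to phu over these same libraries, so nothing is read from the shared order.

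The other 3 genes also had both SD7 libraries above all 3 CD7 libraries, with smaller differences. They were picked on these libraries, in which 8.63% of all genes were higher without overlap, so nothing is read from it. The histone chaperone gene Nap1 was at 187 to 192 CPM in the CD7 libraries and at 249 and 253 CPM in SD7. Rcd5 was at 39.8 to 43.2 and at 50.8 and 52.8 CPM, and Smyd4-4, of the SET and MYND domain family, at 32.4 to 34.1 and at 37.9 and 39.2 CPM. In the input, 5 of the 6 genes had both SD7 libraries above all 3 CD7 libraries, beside 22.2% of all tested genes, from Nepl4 (5.19 to 6.38 against 26.9 and 31.7 CPM) to Rcd5 (37.6 to 39.7 against 50.5 and 52.8 CPM). Smyd4-4 overlapped there, at 38.2 to 42.0 and at 40.2 and 42.6 CPM. The genes were picked for likeness to phu, itself chosen as higher in these inputs, so nothing is read from this count.

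**Figure D4:**
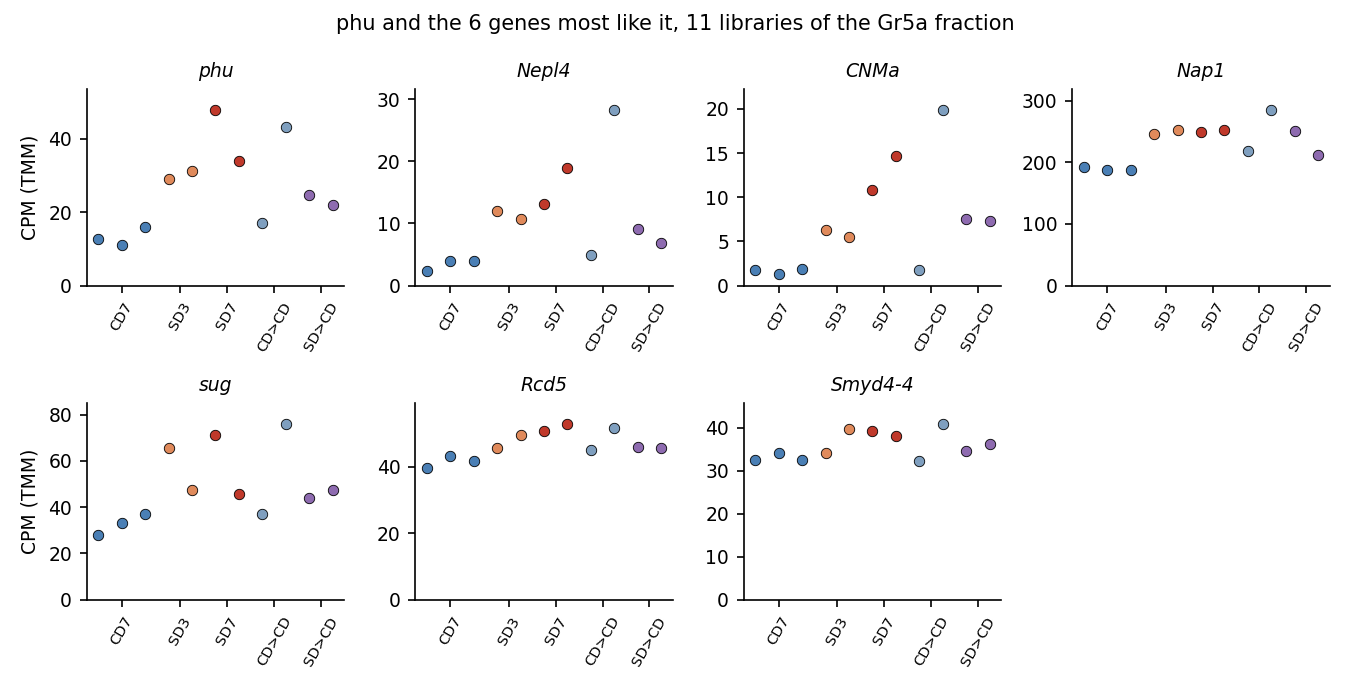
Level in CPM with TMM factors (y axes, from 0, a scale of its own for each gene) of phu and the 6 genes most like it in the 11 libraries of the Gr5a fraction, by group (x axes). Points are libraries. In all 7 panels the 3 CD7 libraries lie below both SD7 libraries, and the second CD>CD library lies above the first. The 6 genes were picked on these libraries, so nothing is read from the shared order.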

How the data were processed

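Per the labels and methods, the authors discarded reads with a quality under 30, aligned the rest with STAR to BDGP6 (dm6) and deposited unnormalized gene counts for each library. The methods name HTSeq, but the layout of the files is that of STAR, which counts reads with 1 mapped place. The same-strand column was used (96.5% of strand-specific counts). Gr5a CD7 replicate 1 has 1 column, taken as same-strand: at genes whose 2 columns were far apart, its median absolute log2 ratio was 0.54 and 0.31 to the same-strand and 6.05 and 6.52 to the unstranded counts of the other CD7 libraries.

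The main test was the quasi-likelihood F test of edgeR 4.0.16 (R 4.3.3) after filterByExpr, with TMM factors and a prior count of 0.125. A call is a Benjamini-Hochberg adjusted p-value, over all tested genes, under 0.1 as in the study. One fit held the 10 day 7 libraries (pull-down against input, and input diets) and another the 11 Gr5a libraries. SE is the log2 fold change over the root of F. Marker sums are scaled by the gene count total alone. Intervals and floors cover counting error only. DESeq2 1.42.0, other filters, the unstranded column, leaving out each library and the replicate number as a block were alternatives.

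The gene, the phosphatase lists, the markers and the tests were chosen with earlier results of these data known. Named genes were phu, tested members of 2 phosphatase families, the nearest gene on each side and the 6 genes most like phu. On the control diet, input and Gr5a libraries of 1 number, which the methods take from 1 lysate, deviated together (correlations 0.354, 0.239 and 0.285 over 14185 genes), and the block kept the phu call.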

Additional observations from a re-analysis of the deposited data

Results flagged for a closer look

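In the Gr5a fraction, the difference between SD>CD and CD>CD was set against that between SD7 and CD7 by a contrast of the 2 in 1 edgeR fit, in which 12.3% of 13758 genes differed at an adjusted p-value under 0.1. The log2 difference between the effects was -4.51 for Alp5, -3.12 for Alp6, -5.14 for Alp10 and -7.38 for Alp13, which had 0 reads in SD>CD, so that its value depends on the prior count. It was 1.88 for the acid phosphatase gene CG9452, whose log2 fold changes were 0.52 in SD>CD against CD>CD and -1.36 in SD7 against CD7. Without CD>CD replicate 2, an alternative added after the data were seen, 8.37% of 14301 genes differed. The values were then -4.95 for Alp5, -3.13 for Alp6, -4.87 for Alp10 and 1.73 for CG9452, all still past the threshold, while Alp13 no longer passed (adjusted p-value 0.151 by edgeR). In the same libraries the midgut genes summed to 9.29 and 17.5 CPM in SD>CD and to 1029 and 2650 CPM in CD>CD. They summed to 725 and 1759 CPM in SD7 and to 2209 to 4337 CPM in CD7. Of the 13 marker lists, 3 were lower and 3 higher in SD>CD than in CD>CD without overlap. Their part in these differences was not tested. No group had more than 3 libraries, so no library was tested as an outlier.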

How the results depend on the processing

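Of 15 alternatives, 10 kept the phu call in the control diet pull-down against input, and all 15 kept its direction (adjusted p-values 0.019 to 0.315). It was not called with the unstranded column (-0.52), which leaves out Gr5a CD7 replicate 1, and fits without 1 library gave -0.76 to -0.33. On the sugar diet the direction held in 14 of 14 alternatives, of which 12 left phu uncalled as reported, with -0.81 to -0.29 without 1 library. Among those that called phu, the replicate number as a block gave -0.54 with adjusted p-value 0.0635 by edgeR. Over 14185 genes, however, same-numbered SD7 libraries deviated in opposite directions (correlation -0.271), while for phu itself they deviated together. Crossed pairing, added after the data were seen, called 3931 genes, against 2583 with the numbers as given and 2655 without a block. The block changed no other phu call; on the control diet it gave -0.53. SD>CD against CD>CD reversed to 0.80 with CD7, which the choice of phu had picked as low, as the control (past the threshold, adjusted p-value 0.0949 by edgeR) and ran from -0.90 to 0.53 without 1 library. A group left with 1 library is assumed to vary like the others. The values not tested ran, without 1 library, from 1.37 to 1.80 (input SD7 against CD7), 1.35 to 1.93 (Gr5a SD7 against CD7), 1.02 to 1.26 (SD3 against CD7), 0.19 to 0.82 (SD7 against SD3), 0.27 to 1.67 (CD>CD against CD7) and -1.13 to -0.51 (SD>CD against SD7).

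Called alkaline phosphatase genes without 1 library ranged from 3 to 5 and 1 to 5 in the pull-down against input on the control and sugar diet, 3 to 7 in SD>CD against CD>CD and 0 to 1 in input SD7 against CD7. Acid phosphatase calls ranged from 1 to 2 on the sugar diet and 0 to 1 in SD>CD against CD>CD. The unstranded column gave 3 alkaline genes on the control diet and 3 in SD>CD against CD>CD. DESeq2 gave 7 alkaline genes, of 10 tested, on the control diet, 5 on the sugar diet and 1 acid gene in each Gr5a diet comparison. Over all genes, calls moved over 1.5 times with the alternative, leaving aside fits with 1 library in a group. They ran from 1 to 860 in input SD7 against CD7 (10 as reported) and from 0 to 119 in Gr5a SD7 against CD7 (0). In SD3 against CD7 they ran from 0 to 440 (6), and in the sugar diet pull-down from 1334 to 3931 (2655). SD>CD against CD>CD gave 144 to 2109 (1828), while CD7 in place of CD>CD, another comparison, gave 5982. Of the 6 genes most like phu, 4 were among the first 6 by Spearman's rho, 5 over all 16 libraries centred within fraction, and 5 without CD>CD replicate 2, the last added after the data were seen. The causes were not tested. Groups of 2 limit what the tests can call.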
